A study of Mus musculus with 9 samples.

Results

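Skin of mice labelled as lacking interleukin 6 (IL-6) was compared with skin of wild-type C57BL/6 mice across all genes, on RNA sequencing reads counted in exons and, separately, in introns. The 6 libraries compared are the 3 titled as IL-6 knockout (genotype IL-6 -/-, strain C57BL/6) and the 3 titled C57BL/6 (wild type), out of 9 in the series. The other 3, of wild-type BALB/c skin, entered the filter on low counts, the scaling and the estimate of replicate spread, but not the comparison itself. All mice came from the Jackson Laboratory at 4 to 5 weeks of age, spent 2 weeks in the facility before the start at 6 weeks, were shaved on day 0 and left untreated for 7 days, and skin was taken on day 8. The protocol counts 6 mice for the IL-6 -/- genotype and 3 for each wild-type strain, without linking any library to a mouse, so the p-values measure the spread between libraries, which may be technical in part. The labels used here do not state the sex.

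IL-6 is a cytokine that binds its receptor chain Il6ra, recruits the shared chain gp130 (Il6st), and signals through JAK kinases to the transcription factor STAT3, which in turn induces the inhibitor Socs3. In skin it is made by keratinocytes, fibroblasts and immune cells and is best known for its part in inflammation and wound repair. Skin is also a tissue whose composition shifts with the hair cycle: a growing follicle holds dividing matrix cells, pigment-making melanocytes and differentiating keratin-producing layers, and a resting follicle does not.

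Reads of the targeted gene, few as they are, go against the label. Exon reads of Il6 (GRCm38 chromosome 5, 30013114 to 30019981) numbered 2, 1 and 0 in C57BL/6 replicates 1 to 3 against 6, 24 and 1 in IL-6 KO replicates 1 to 3, a log2 fold change of 3.62 ± 1.14 (SE; adjusted p = 0.0381, edgeR's quasi-likelihood test without a filter on low counts). Summed over libraries that is 3 against 31 reads, a ratio of 15.8 after scaling to library totals (95% exact interval for counting error only, 4.93 to 80.9). The call ended without any 1 of C57BL/6 replicates 1 to 3 or IL-6 KO replicates 1 and 2 (adjusted p from 0.0591 to 0.21) and held without IL-6 KO replicate 3 (0.0139). Exon-exon reads of Il6 numbered 2, 1 and 0 in C57BL/6 replicates 1 to 3 and 2, 6 and 1 in IL-6 KO replicates 1 to 3. The intron column of Il6 held 0 reads in each C57BL/6 library and 7, 12 and 5 in those labelled IL-6 KO. Intron reads were assigned differently in the tables of the groups, as given below. Which part of the gene the allele removes is not stated in the labels, so reads outside a deleted part check nothing. The libraries labelled IL-6 KO, called KO-labelled from here on, are therefore named by their label alone, and each direction below is that of the label.

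The libraries held 6882193, 6530963 and 6083876 exon reads in C57BL/6 and 3843953 to 4476346 in the KO-labelled group, and 17339 to 18003 genes had a read. Markers of the labelled tissue were present in each library, with cornified envelope genes of the outer epidermis at 1.83 to 3.34% of exon reads in C57BL/6 and 1.29 to 4.16% in the KO-labelled libraries. KO-labelled replicate 2 stood apart. It was the lowest of its group in 2304 of the 2767 genes called higher (83.3%) and the highest in 1387 of the 2301 called lower (60.3%), and hair shaft keratin genes took 1.12% of its exon reads against 5.04% and 4.02% in replicates 1 and 3. Within C57BL/6, collagen genes took 5.04% of exon reads in replicate 1 and 0.848% and 2.03% in the others. Most hair, muscle and clock genes differed between the groups. Of tested members, 63 of 63 hair shaft genes were higher, 37 of 42 skeletal muscle genes lower and 1 higher, and 13 of 19 clock genes lower and 2 higher. The skeletal muscle genes took 11.1, 9.56 and 14.7% of exon reads in C57BL/6 and 1.92, 2.29 and 1.90% in the KO-labelled libraries. These 3 themes are given here only as values to set beside the other gene groups.

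In exon reads, 5068 of 14415 genes tested (35.2%) differed between the groups at an adjusted p under 0.05, 2767 higher (19.2%) and 2301 lower (16%) in the KO-labelled libraries. Of these, 2709 changed at least 2-fold and 1062 at least 4-fold, 667 of the latter upward and 395 downward, and the median log2 fold change of all tested genes was 0.01. Calls made with all 6 libraries and again with each of them left out in turn numbered 2933, with 1624 higher and 1309 lower. Without KO-labelled replicate 2 the count was 6806 of 14749 (46.1%), which included 4855 of the 5068, and without KO-labelled replicate 3 it was 3238. Higher genes made up 54.6% of calls under scaling by trimmed mean of M-values (TMM) and 67.8% under library size alone, which moved the median of all genes from 0.01 to 0.15. Levels are given as CPM, exon reads scaled to the library's total over the tested genes and adjusted by TMM. The gene lists below are read against 35.2%, 19.2% and 16%, and the plot of list calls marks both directions. Groups without overlap were common, in 6853 of the 14415 genes (47.5%). The KO-labelled libraries lay above in 3539 (24.6%) and below in 3314 (23%). Of 78 list counts of 1 to 5 genes in 1 direction, 53 moved by over 1.5 times without at least 1 library, as did 31 of 67 counts of 6 or more. In bulk skin, fewer cells of a type and less RNA per cell cannot be told apart.

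**Figure D1:**
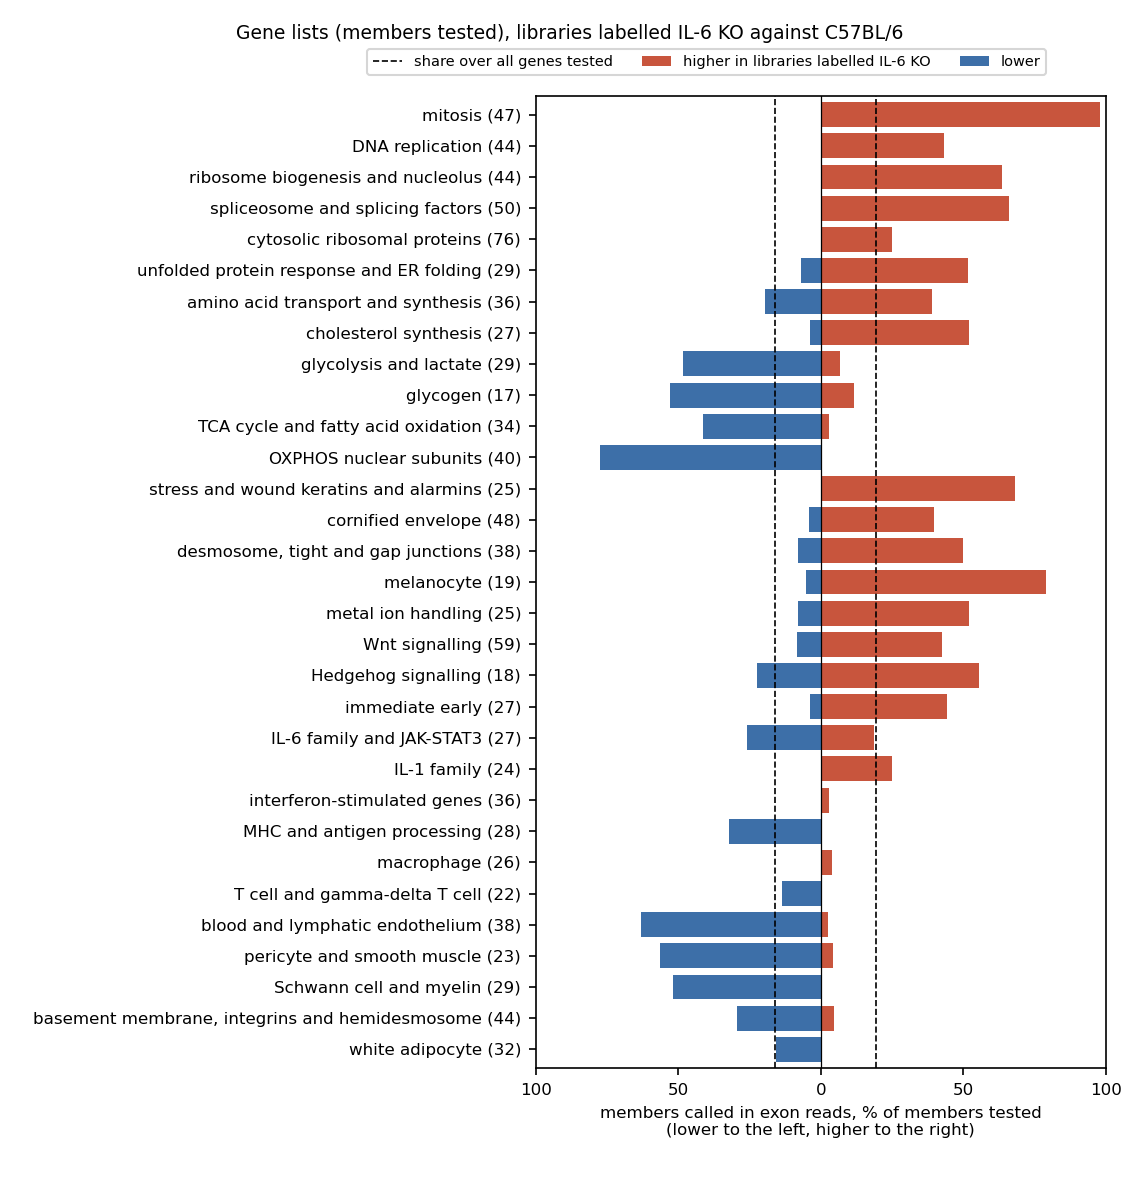
Share of each gene list's tested members called in exon reads (x axis, % of members tested, higher to the right and lower to the left of 0; number tested in brackets), with dashed lines at the shares over all genes, 19.2% higher and 16% lower. Mitosis (46 of 47 higher), stress keratins (17 of 25 higher) and nuclear respiratory chain subunits (31 of 40 lower) extend far past the lines, and interferon-stimulated genes (1 of 36) do not reach them.

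Outside the hair keratin lists, the genes with the highest fold changes were low or unread in C57BL/6 skin. Gprc5d, an orphan receptor of the retinoic acid-inducible family, was at 4.15, 1.04 and 0 CPM in C57BL/6 and 822, 171 and 594 CPM in the KO-labelled libraries (8.18 ± 0.90, adjusted p = 4.95e-04 for the log2 fold change and its SE). Vsig8 was at 3.54, 1.64 and 0.186 CPM in C57BL/6 and 540.3, 109 and 556 CPM in the KO-labelled libraries. In both genes the lowest KO-labelled library was replicate 2. That it lay above each C57BL/6 library was a condition of the choice of these genes. Ly6g6d (7.44) and the hair keratin Krt87 (8.32) were likewise lowest in replicate 2 among the KO-labelled libraries. Actbl2, an actin relative, had 1 read over the 3 C57BL/6 libraries and 263 over the 3 KO-labelled ones, a ratio of 403 after the same scaling with a counting interval of 71.6 to 15963. Crisp1 had 2 against 324 reads (248, interval 68.1 to 2057), and Sptssb, a subunit of the enzyme that starts ceramide synthesis, 1 against 207 (317, interval 56.3 to 12577). Tm4sf4 had 0 reads in the 3 C57BL/6 libraries and 54, 9 and 36 in the KO-labelled libraries, at least 49.1-fold higher against a floor of 3 reads over the group. Cps1, the entry enzyme of the urea cycle, had 0 against 27, 19 and 50 reads and was at least 44.7-fold higher. For Fam26d (8.43) only 3.31% of exon reads mapped uniquely, so its value is uncertain.

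The lowest fold changes included genes known from skeletal muscle and its innervation. Mstn, the secreted inhibitor of muscle growth, was at 215, 84.4 and 229 CPM in C57BL/6 and 13.8, 6.11 and 5.94 CPM in the KO-labelled libraries (−4.38 ± 0.68, adjusted p = 0.00156). Ampd1, the muscle AMP deaminase, was at 316, 297 and 529 CPM in C57BL/6 and 38.6, 30.9 and 31.6 CPM in the KO-labelled libraries (−3.50 ± 0.29, adjusted p = 4.29e-04), and Aqp4, a water channel of muscle fibres and glia, at 64.9, 41.8 and 51.4 CPM in C57BL/6 and 7.40, 2.85 and 3.18 CPM in the KO-labelled libraries (−3.59 ± 0.34, adjusted p = 4.29e-04). The choice of these genes required that the 3 values of each group lie apart. In Ampd1 the KO-labelled values fell within a narrow range. Dusp26 (−4.55), Plcd4 (−3.99), Mylk4 (−3.61), Chrne, the adult subunit of the muscle acetylcholine receptor (−3.85), Mafa (−3.45) and Casr, the calcium-sensing receptor (−3.32), were also lower. Lrrc14b (−4.95) shares most of its reads with other sequence, with 6.06% unique, and is uncertain.

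Genes of cell division were higher in the KO-labelled libraries. Of the mitosis list, 46 of 47 tested members were higher and 0 lower, with a median log2 fold change of 2.25, and their summed reads took 0.0308, 0.0392 and 0.0262% of exon reads in C57BL/6 and 0.185, 0.0924 and 0.199% in the KO-labelled libraries. Mki67, the proliferation marker Ki-67 (chromosome 7, 135689784 to 135716361), was at 28.9, 29.8 and 20.6 CPM in C57BL/6 and 247, 99.2 and 256 CPM in the KO-labelled libraries (2.92 ± 0.34, adjusted p = 5.42e-04). Cenpf, a kinetochore protein, was at 5.07, 4.62 and 4.46 CPM in C57BL/6 and 45, 20.2 and 40.3 CPM in the KO-labelled libraries (2.89 ± 0.30, adjusted p = 4.62e-04), and Birc5, the chromosomal passenger survivin, at 5.84, 4.77 and 4.83 CPM in C57BL/6 and 30.1, 16.3 and 26.5 CPM in the KO-labelled libraries (2.23 ± 0.25, adjusted p = 5.01e-04). Replicate 2 was the lowest of the KO-labelled libraries in all 3 genes and stayed above each C57BL/6 library. Ccna2, cyclin A2, changed by 2.84, with 68.5% of its exon reads unique. Leaving out any 1 library kept the mitosis count within 1.5 times.

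DNA replication genes moved less. In that list 19 of 44 tested members were higher and 0 lower (median 0.81), among them Mcm10 (2.77) and Cdc6 (1.72), which load and fire replication origins, Clspn (2.21) and the nucleotide enzyme Dut (1.13). The count was 10 higher without C57BL/6 replicate 3 or KO-labelled replicate 1 or 3, 11 higher without C57BL/6 replicate 1 and 34 higher without KO-labelled replicate 2. Hair shaft and inner root sheath genes rose with these groups, in 63 of 63 and 23 of 24 tested members, at 1.12 to 5.04% of exon reads for the hair shaft list in the KO-labelled libraries and 0.00224 to 0.0281% in C57BL/6. Their part in the proliferation values was not tested.

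Because the mitosis genes moved together, their promoters were read for letters linked to cell-cycle genes, and a few are shown so that the shared letters can be seen. The window is the 150 bases before the annotated start, from RefSeq (GRCm38.p6), where 38 of the 47 tested members had an entry. The letters CCAAT, the core bound by NF-Y, searched on both strands, stood in 29 of the 38 (76.3%), against 27.7% of 27025 promoters of the same length and 31.2% of those of tested genes. The same letters stood as often in promoters of the endoplasmic reticulum folding list (18 of 24, 75%, of which 7 were called higher) and in 21 of 35 (60%) of the DNA replication list. TTTGAA, the core of the cell cycle homology region, on both strands, stood in 13 (34.2%), against 10.5% of all and 6.75% of tested genes, and in 3 of 35 DNA replication promoters. The members shown hold both, were called higher and have low adjusted p-values. Sequences run 5′ to 3′ on the gene's strand, with matches to either motif, or to its reverse complement ATTGG or TTCAAA, in capitals.
Mki67, chr7:135716380-135716529, minus strand: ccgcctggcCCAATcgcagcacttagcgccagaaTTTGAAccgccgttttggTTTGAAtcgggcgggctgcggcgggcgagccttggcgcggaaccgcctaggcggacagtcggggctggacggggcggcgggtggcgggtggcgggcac
Kif11, chr19:37376232-37376381, plus strand: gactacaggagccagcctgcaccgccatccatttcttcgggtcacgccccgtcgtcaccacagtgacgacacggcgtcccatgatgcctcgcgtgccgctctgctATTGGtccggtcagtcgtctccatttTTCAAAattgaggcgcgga
Top2a, chr11:99024190-99024339, minus strand: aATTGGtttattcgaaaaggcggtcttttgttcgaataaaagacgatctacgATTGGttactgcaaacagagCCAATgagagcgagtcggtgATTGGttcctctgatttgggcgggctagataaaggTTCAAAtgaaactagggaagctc
A match describes these letters in this window and is not evidence that a factor binds there. Mki67 holds 1 CCAAT and 2 TTTGAA, Kif11 1 of each, and Top2a 4 and 1. Kif11, a spindle motor, changed by 3.11 ± 0.37 (adjusted p = 5.80e-04), and Top2a, the topoisomerase of dividing cells, by 2.58 ± 0.34 (adjusted p = 7.80e-04).

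Biosynthetic gene groups were higher by smaller amounts. In ribosome biogenesis 28 of 44 tested members were higher and 0 lower (median 0.63), led by Mycn, the transcription factor N-Myc, at 0.922, 1.04 and 1.30 CPM in C57BL/6 and 40.7, 6.52 and 32.5 CPM in the KO-labelled libraries (4.59 ± 0.68, adjusted p = 0.00129). The groups lay apart. Nhp2 (1.05), Ddx21 (1.05) and Heatr1 (1.09), which act in making ribosomal RNA, also rose. The count was 14 higher without KO-labelled replicate 1, 15 higher without C57BL/6 replicate 3, 16 higher without KO-labelled replicate 3 and 17 higher without C57BL/6 replicate 1. Splicing factors showed 33 of 50 higher and 0 lower (median 0.56), including the epithelial regulator Esrp2 (1.04) and Srsf9 (0.85). For splicing factors the count was 18 higher without KO-labelled replicate 3, 19 higher without C57BL/6 replicate 3 or KO-labelled replicate 1 and 20 higher without C57BL/6 replicate 1. Cytosolic ribosomal protein genes were called higher in 19 of 76 and lower in 0 (median 0.35); the share over all genes was 19.2%. Here the count was 4 higher without KO-labelled replicate 1, 5 higher without C57BL/6 replicate 1 or 3 or KO-labelled replicate 3, 11 higher without C57BL/6 replicate 2, 40 higher without KO-labelled replicate 2 and 44 higher with scaling by library size alone. Many of these genes have processed copies, and Rpl27 and Rpl10, the leading members, had 34% and 15.6% unique reads.

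Amino acid transporters changed in both directions, with 14 of 36 listed genes of transport and synthesis higher and 7 lower (median 0.44). Slc7a11, the cystine and glutamate exchanger that supplies glutathione synthesis and sets the pigment type of melanocytes (chromosome 3, 49892526 to 50443614), was at 0.461, 0.298 and 0.186 CPM in C57BL/6 and 27.2, 13.4 and 20.8 CPM in the KO-labelled libraries (5.89 ± 0.51, adjusted p = 4.29e-04). Each KO-labelled library lay far above each C57BL/6 library in this gene. Slc7a8, a neutral amino acid exchanger (3.66 ± 0.35, adjusted p = 4.29e-04), and Slc7a1, the arginine and lysine carrier (2.09 ± 0.31, adjusted p = 0.0012), were also higher. Got1, the cytosolic aspartate aminotransferase (−1.43 ± 0.19, adjusted p = 9.08e-04), was lower. The count was 9 higher without KO-labelled replicate 1 or 3 and 4 lower without KO-labelled replicate 3. Ctps, which makes CTP, rose by 3.03 ± 0.41 (adjusted p = 8.53e-04).

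Genes of protein folding in the endoplasmic reticulum were higher in 15 of 29 and lower in 2 (median 0.42), with Ero1l, the oxidase that feeds disulfide formation, at 30.3, 28 and 22.8 CPM in C57BL/6 and 285, 113 and 247 CPM in the KO-labelled libraries (2.99 ± 0.31, adjusted p = 4.62e-04). Edem1 (1.05) and Txndc5 (1.24) rose, and Herpud1, part of the degradation complex, fell (−1.18). The count was 8 higher without C57BL/6 replicate 3 or KO-labelled replicate 1. The letters of the endoplasmic reticulum stress response element, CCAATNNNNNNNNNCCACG on either strand, which contain the CCAAT searched above, stood in 7 of the 24 listed promoters with an entry (29.2%) against 0.0962% of the 27025. Of these 7 genes, 3 were called higher. The promoters of Hspa5, the chaperone BiP, and Hsp90b1, GRP94, are shown as called members that hold it, with the fixed letters in capitals.
Hspa5, chr2:34771940-34772089, plus strand: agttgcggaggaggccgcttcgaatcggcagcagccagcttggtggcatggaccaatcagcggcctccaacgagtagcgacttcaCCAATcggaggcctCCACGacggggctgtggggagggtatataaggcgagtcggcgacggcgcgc
Hsp90b1, chr10:86705445-86705594, minus strand: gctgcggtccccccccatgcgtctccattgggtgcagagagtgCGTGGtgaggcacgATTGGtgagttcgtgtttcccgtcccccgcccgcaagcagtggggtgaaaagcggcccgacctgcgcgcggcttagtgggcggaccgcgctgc
Exon reads of Hspa5 changed by 0.60 ± 0.13 (adjusted p = 0.00801), and those of Hsp90b1 by 0.49 ± 0.13 (adjusted p = 0.0148), both smaller than for Ero1l. The Hsp90b1 call ended without C57BL/6 replicate 3 (adjusted p = 0.0538) or KO-labelled replicate 1 (0.0536).

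**Figure D2:**
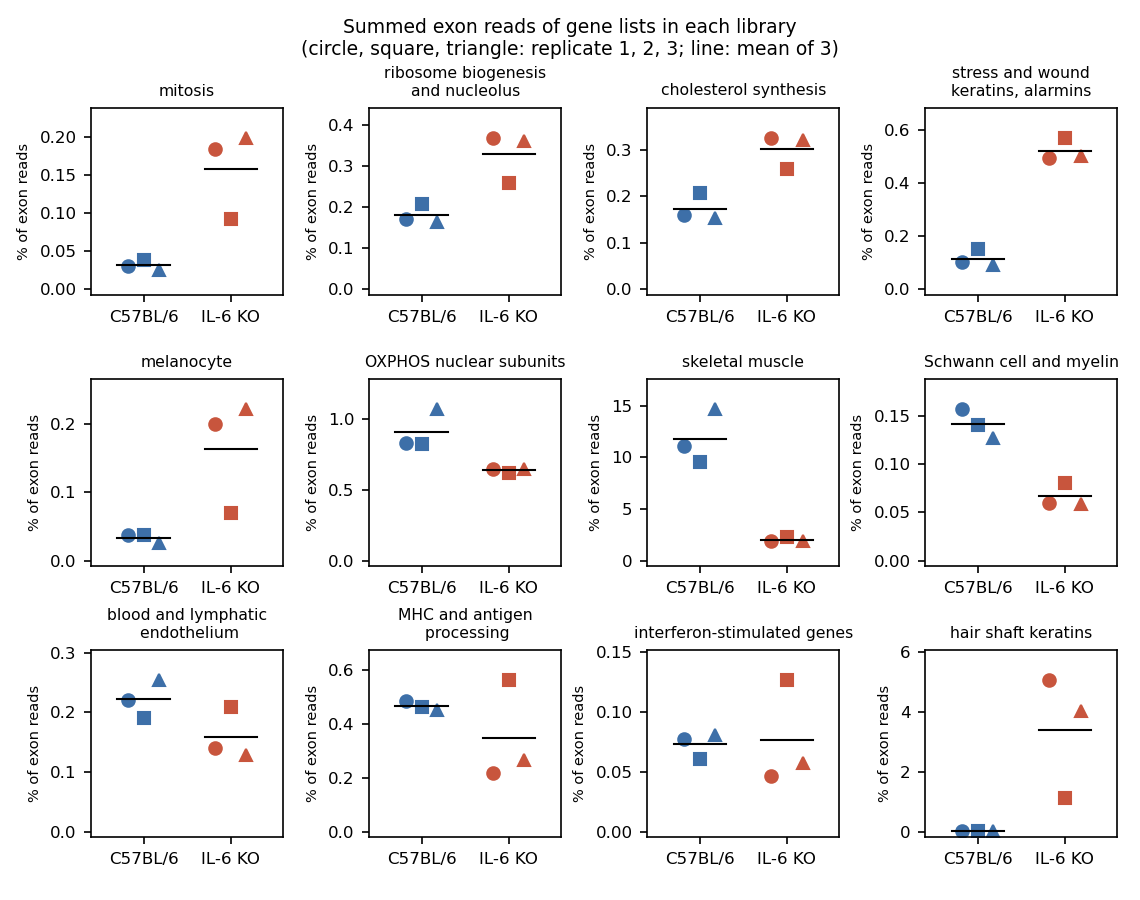
Summed exon reads of 12 gene lists in each library (y axis, % of exon reads; circle, square and triangle for replicates 1, 2 and 3; line, mean of 3), C57BL/6 in blue and IL-6 KO in red. Mitosis, stress keratin, melanocyte and cholesterol genes lie higher in all 3 KO-labelled libraries and Schwann cell genes lower, whereas KO-labelled replicate 2 lies above each C57BL/6 library for MHC (0.56%) and interferon-stimulated genes (0.126%) with the other 2 below.

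Energy metabolism moved the other way. Nuclear subunits of the respiratory chain (OXPHOS) were lower in 31 of 40 and higher in 0 (median −0.65), and their summed share was 0.833, 0.823 and 1.07% of exon reads in C57BL/6 and 0.645, 0.615 and 0.649% in the KO-labelled libraries, without overlap. Ndufa5, of complex I, was at 65.5, 57.4 and 86.3 CPM in C57BL/6 and 35.2, 29.1 and 36.1 CPM in the KO-labelled libraries (−1.06 ± 0.17, adjusted p = 0.00185). The count was 18 lower without KO-labelled replicate 3. Glycolysis and lactate genes were lower in 14 of 29 and higher in 2 (median −0.79), with Hk2, the muscle and growth-linked hexokinase, at 178, 224 and 231 CPM in C57BL/6 and 78.8, 75.9 and 63.7 CPM in the KO-labelled libraries (−1.53 ± 0.18, adjusted p = 5.37e-04). Pfkm, the muscle phosphofructokinase, changed by −2.51 ± 0.31 (adjusted p = 6.33e-04). Citric acid cycle and fatty acid oxidation genes were lower in 14 of 34 and higher in 1 (median −0.72). The count was 9 lower without C57BL/6 replicate 3 or KO-labelled replicate 3. Mitochondrially encoded genes were lower in 4 of 13, and that count was 1 without C57BL/6 replicate 3 or KO-labelled replicate 1 or 3 and 10 without C57BL/6 replicate 2.

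Some genes with paired symbols moved in opposite directions. Pgm1 (chromosome 5) rose by 2.75 ± 0.27 (adjusted p = 4.29e-04) and Pgm2 (chromosome 4) fell by 2.57 ± 0.22 (adjusted p = 4.29e-04). Both are in the glycogen list, and the symbol alone does not give which enzyme each encodes. Cpt1a, the carnitine palmitoyltransferase of liver and most tissues, rose by 0.93 ± 0.18 (adjusted p = 0.00437), and Cpt1b, the muscle form, changed by −2.27 ± 0.33 (adjusted p = 0.00117), with 10.8% of its exon reads unique. Glycogen genes, with 9 of 17 lower and 2 higher (median −1.07), included Phka1 (−2.96) and Gys1, the muscle glycogen synthase (−1.82). Skeletal muscle genes were lower beside all of these groups, at 9.56 to 14.7% of exon reads in C57BL/6 and 1.90 to 2.29% in the KO-labelled libraries. How much of the metabolic difference goes with the muscle share was not tested.

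Lipid synthesis lists differed from each other. Cholesterol synthesis genes were higher in 14 of 27 and lower in 1 (median 0.52), with shares of 0.160, 0.207 and 0.154% of exon reads in C57BL/6 and 0.325, 0.259 and 0.321% in the KO-labelled libraries. Insig1, the sterol sensor that holds back the SREBP transcription factors and is itself their target, was at 42.1, 50.1 and 44 CPM in C57BL/6 and 219, 102 and 179 CPM in the KO-labelled libraries (1.87 ± 0.27, adjusted p = 0.00117). Idi1 (1.44 ± 0.17, adjusted p = 5.99e-04) rose. Lpin1, the listed member that fell (−1.63), is not itself an enzyme of cholesterol synthesis. The count was 9 higher without KO-labelled replicate 1. Fatty acid synthesis genes were called higher in 6 and lower in 6 of 28, near the shares over all genes (19.2% and 16%). Lower members there numbered 3 without KO-labelled replicate 3 and 10 without KO-labelled replicate 2. Elovl3, an elongase of sebaceous glands and hair follicles, was at 10.5, 12.2 and 9.10 CPM in C57BL/6 and 73.8, 41.9 and 85.1 CPM in the KO-labelled libraries (2.65 ± 0.30, adjusted p = 5.22e-04), while Acacb (−2.21) and Mlxipl (−2.06), of lipid storage tissues, fell. Markers of white adipocytes were lower in 5 of 32 (median −1.24), and in 18 without KO-labelled replicate 2. Over all genes the lower share was 16%, and 21.8% without that replicate. Their summed share was 1.00, 0.926 and 1.13% of exon reads in C57BL/6 and 0.342, 0.761 and 0.278% in the KO-labelled libraries, with replicate 2 the highest of its group.

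Keratinocyte genes known from wounded or inflamed skin were among the strongest increases. Stress and wound keratins and alarmins were higher in 17 of 25 and lower in 0 (median 3.50), with summed shares of 0.104, 0.151 and 0.0917% of exon reads in C57BL/6 and 0.493, 0.567 and 0.5% in the KO-labelled libraries. Sprr1b, a small proline-rich cornified envelope protein (chromosome 3, 92436809 to 92438789), was at 0.615, 0.746 and 0.186 CPM in C57BL/6 and 57.6, 91.6 and 55 CPM in the KO-labelled libraries (6.93 ± 0.37, adjusted p = 1.12e-04). Krt6b was at 2.61, 4.32 and 0.186 CPM in C57BL/6 and 95.5, 438 and 288 CPM in the KO-labelled libraries (6.78 ± 0.75, adjusted p = 4.99e-04), and S100a7a, the psoriasin homologue, at 1.54, 2.39 and 0.743 CPM in C57BL/6 and 168, 41.5 and 101 CPM in the KO-labelled libraries (5.99 ± 0.59, adjusted p = 4.29e-04). In none of the 3 genes did the groups overlap, as in 47.5% of all genes tested, and replicate 2 was the highest for Krt6b. Krt6 and Krt16 proteins also belong to the companion layer of hair follicles, which these reads do not separate from epidermis.

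Junction genes were higher in 19 of 38 and lower in 3 (median 0.63), with 1 lower without C57BL/6 replicate 1 or 2 or KO-labelled replicate 1 or 3 and with scaling by library size alone, and 5 lower without KO-labelled replicate 2. The gap junction genes Gjb2 (6.44 ± 0.76, adjusted p = 5.68e-04) and Gjb6 (6.21 ± 0.53, adjusted p = 4.29e-04) encode connexins. Dsg4, the desmoglein of hair and upper epidermis (6.70 ± 0.67, adjusted p = 6.28e-04), and Dsc2 (4.88 ± 0.52, adjusted p = 4.70e-04) also rose. Gjb6 was at 0.922, 1.49 and 0.928 CPM in C57BL/6 and 125, 34 and 97.9 CPM in the KO-labelled libraries, and the groups did not overlap. Cornified envelope genes were higher in 19 of 48 and lower in 2 (median 0.78), but lower in 0 without any other 1 of the 6 libraries and in 15 without KO-labelled replicate 2, whose share of these genes was 4.16% against 1.29% and 1.66% in its group. Kallikreins and protease inhibitors showed 9 of 26 higher and 0 lower, with 6 lower without that replicate. Spink12, an inhibitor of skin proteases, had 0 reads in C57BL/6 and 16, 15 and 16 in the KO-labelled libraries, at least 22.1-fold higher. Basal epidermis genes were lower in 6 of 17 and higher in 2, including Krt15 at 1986, 3598 and 1826 CPM in C57BL/6 and 369, 729 and 381 CPM in the KO-labelled libraries (−2.33 ± 0.37, adjusted p = 0.00174). Krt15 also stands in the hair follicle stem cell list, where 10 of 28 were higher and 6 lower. That list had 3 lower without KO-labelled replicate 3.

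**Figure D3:**
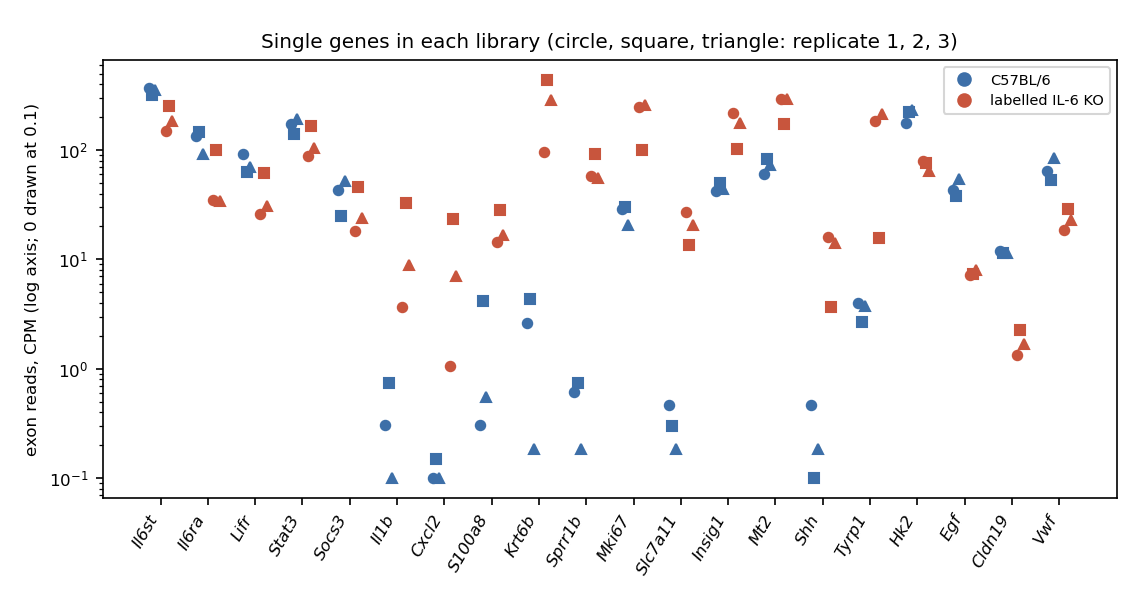
Exon reads of 20 genes in each library (y axis, CPM, log axis, values of 0 drawn at 0.1; circle, square and triangle for replicates 1, 2 and 3), C57BL/6 in blue and KO-labelled in red. Il6st lies lower in the red libraries, Il6ra, Stat3 and Socs3 overlap, and Krt6b, Sprr1b, Slc7a11 and Tyrp1 are separated by more than 1 decade on average.

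Developmental signalling genes of the follicle were called higher more often than lower. Wnt pathway genes were called higher in 25 of 59 and lower in 5 (median 0.42). Lef1, the transcription factor that carries the signal into the nucleus, was at 1.38, 1.34 and 2.23 CPM in C57BL/6 and 83.6, 16.7 and 75.1 CPM in the KO-labelled libraries (5.15 ± 0.63, adjusted p = 6.33e-04), with 79.4% unique reads. Ligands Wnt11 (2.32) and Wnt5a (2.22) and the receptor Fzd5 (2.23) rose, while the secreted antagonist Sfrp5 (−2.36) and the receptors Fzd4 (−1.66) and Fzd9 (−2.22) fell. Hedgehog genes were higher in 10 of 18 and lower in 4 (median 0.99). The ligand Shh was at 0.461, 0 and 0.186 CPM in C57BL/6 and 15.9, 3.66 and 14 CPM in the KO-labelled libraries (5.55 ± 0.90, adjusted p = 0.00189), its receptor and target Ptch1 changed by 1.6 ± 0.27 (adjusted p = 0.00221), and the target Gli1 by 1.85 ± 0.38 (adjusted p = 0.00573). Dhh, the ligand made by Schwann cells, fell (−2.13). Hedgehog genes lower numbered 2 without KO-labelled replicate 1 or 3 and with scaling by library size alone. Dermal papilla markers were higher in 11 of 27 and lower in 2, Corin (3.48) and Scube3 (3.31) among them.

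Growth factor families held calls in both directions, as did all genes (19.2% higher and 16% lower). In BMP, TGF-beta and activin signalling 13 of 50 were higher and 11 lower, with the pseudoreceptor Bambi (4.12 ± 0.46, adjusted p = 5.01e-04), the ligand Bmp8a (4.03) and the inhibitor Smad7 (1.85) up, and Chrd, chordin (−1.35), down. The count was 6 lower without C57BL/6 replicate 1 or 3 or KO-labelled replicate 3 and 7 lower without KO-labelled replicate 1 and with scaling by library size alone. In FGF signalling 7 of 29 were higher and 6 lower. Fgf5, the ligand that ends follicle growth (4.94), and the feedback phosphatases Dusp5 (2.95) and Dusp6 (1.32) rose, and Fgf18 (−1.97) fell. Among EGF receptor ligands, Egf fell, at 43.4, 38.2 and 54.8 CPM in C57BL/6 and 7.14, 7.33 and 8.07 CPM in the KO-labelled libraries (−2.59 ± 0.25, adjusted p = 4.29e-04), and Tgfa (2.18 ± 0.29, adjusted p = 9.03e-04), Areg (2.99 ± 0.47, adjusted p = 0.00157) and Nrg1 (2.89) rose. The ligands of one receptor family thus differed in direction.

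Among receptors and effectors of IL-6 itself, the shared chain was lower. Il6st was at 371, 319 and 353 CPM in C57BL/6 and 151, 251 and 183 CPM in the KO-labelled libraries (−0.83 ± 0.19, adjusted p = 0.0091), without overlap. Il6ra was at 136, 147 and 91.4 CPM in C57BL/6 and 34.6, 99.6 and 34 CPM in the KO-labelled libraries (−1.15 ± 0.40, adjusted p = 0.0498), where replicate 2 overlapped the C57BL/6 range, and Lifr changed by −0.93 ± 0.29 (adjusted p = 0.035). The Il6ra call ended without any 1 of the C57BL/6 libraries or KO-labelled replicate 1 or 3 (adjusted p from 0.0596 to 0.159), and the Lifr call without C57BL/6 replicate 1 or 3 or KO-labelled replicate 1 or 3 (0.0695 to 0.128). Leaving out KO-labelled replicate 2 instead kept both lower (Il6ra −1.86, Lifr −1.41). Stat3 was at 175, 140.3 and 192 CPM in C57BL/6 and 88.9, 165 and 103 CPM in the KO-labelled libraries (−0.50 ± 0.22, adjusted p = 0.109), Socs3 changed by −0.45 ± 0.35 (adjusted p = 0.338) and Osmr by −0.16 ± 0.29 (adjusted p = 0.704), none of them past the threshold. All 3 passed it without KO-labelled replicate 2, with Stat3 at −0.81 (adjusted p = 0.00371), Socs3 at −0.93 (0.03) and Osmr at −0.64 (0.0163). Socs2, an inhibitor of growth hormone signalling, fell (−1.74 ± 0.27, adjusted p = 0.00162), and Cntfr, a receptor chain of the same cytokine family, rose (2.04 ± 0.46, adjusted p = 0.00858). Over the whole IL-6 and JAK-STAT3 list 5 of 27 were higher and 7 lower (median −0.27), against 19.2% and 16% of all genes. The count was 2 lower without KO-labelled replicate 1, 3 lower without C57BL/6 replicate 1 or 3 or KO-labelled replicate 3 and with scaling by library size alone and 16 lower without KO-labelled replicate 2. Of 15 acute phase and STAT3 response genes, Saa3 was higher (4.04) and 1 was lower, with 0 to 2 lower without any other 1 of the 6 libraries and 6 without KO-labelled replicate 2.

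Single genes linked to neutrophils rose with a wide spread. The chemokine list as a whole was called in 29.0% of tested members, against 35.2% of all genes. Among chemokines and their receptors 4 of 31 were higher and 5 lower (median 0.38), with Cxcl14 (1.12) and Cxcr4 (0.84) higher beside the pair described here and Ackr4 (−1.67), Ccl24 (−1.47), Ccl27a (−1.38), Ccl19 (−1.33) and Ackr1 (−1.19) lower. The chemokine count was 3 lower without KO-labelled replicate 3 and 8 lower without KO-labelled replicate 2. Il1b, the inflammatory cytokine, was at 0.307, 0.746 and 0 CPM in C57BL/6 and 3.70, 33 and 8.92 CPM in the KO-labelled libraries (5.29 ± 1.17, adjusted p = 0.00755). Cxcl2, which draws neutrophils, was at 0, 0.149 and 0 CPM in C57BL/6 and 1.06, 23.4 and 7.01 CPM in the KO-labelled libraries (adjusted p = 0.00869). With 1 read over the C57BL/6 libraries against 152, its ratio was 233 with a counting interval of 41.1 to 9251, and its receptor Cxcr2 changed by 4.63 ± 0.84 (adjusted p = 0.00309). The calgranulin genes S100a8 (3.50 ± 0.69, adjusted p = 0.00452) and S100a9 (3.91 ± 0.68, adjusted p = 0.00259), made by neutrophils and by stressed keratinocytes, were also higher. Replicate 2 was the highest library for Il1b and Cxcl2, and the other 2 KO-labelled libraries still lay above C57BL/6. Of 17 neutrophil and eosinophil markers in the tables, 5 were tested and 3 called higher, namely S100a8, S100a9 and Cxcr2, which other lists here share. The 17 summed to 0.00312, 0.00271 and 0.00248% of exon reads in C57BL/6 and 0.00401, 0.0134 and 0.00492% in the KO-labelled libraries. Ly6g, the defining surface marker of neutrophils, had 0 reads in each library, and the granule gene Elane had 0 in each KO-labelled library. IL-1 family genes were higher in 6 of 24 and lower in 0, against 19.2% and 16% of all genes. The count was 3 higher without C57BL/6 replicate 3 and 6 lower without KO-labelled replicate 2.

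Summed reads of interferon, antigen presentation, T cell and macrophage genes were spread widely among the KO-labelled libraries, with replicate 2 the highest. Interferon-stimulated genes were higher in 1 of 36 and lower in 0 (median 0.03), with shares of 0.0775, 0.0609 and 0.0811% of exon reads in C57BL/6 and 0.0463, 0.126 and 0.0574% in the KO-labelled libraries, and without replicate 2 the count was 0 higher and 5 lower. The member called was Irf7 (1.15 ± 0.37, adjusted p = 0.0389), a call that ended without any 1 of the C57BL/6 libraries or KO-labelled replicate 2 or 3 (adjusted p from 0.0522 to 0.104). Antigen presentation genes were lower in 9 of 28 and higher in 0 (median −0.70), led by the class I genes H2-Q6 (−1.85 ± 0.32, adjusted p = 0.00258) and H2-Q4 (−1.32 ± 0.31, adjusted p = 0.0104). The count was 3 lower without C57BL/6 replicate 1 or 3 or KO-labelled replicate 1 or 3 and with scaling by library size alone and 21 lower without KO-labelled replicate 2. Type 1 immunity genes were lower in 3 of 16, in 12 without replicate 2 and in 1 without KO-labelled replicate 1. T cell markers were lower in 3 of 22, in 10 without replicate 2, in 1 without C57BL/6 replicate 2, and in 0 without C57BL/6 replicate 1 or KO-labelled replicate 1 or 3. Over all genes the lower share was 16%, and 21.8% without KO-labelled replicate 2. Macrophage markers summed to 0.205, 0.106 and 0.144% of exon reads in C57BL/6 and 0.112, 0.308 and 0.162% in the KO-labelled libraries. Those shares were highest in KO-labelled replicate 2, and the groups overlapped. Complement genes were lower in 1 of 25, and in 6 without replicate 2. B cell and plasma cell genes differed from these lists, at 0.0343, 0.0401 and 0.0292% of exon reads in C57BL/6 and 0.0740, 0.0687 and 0.0629% in the KO-labelled libraries. Of the 3 tested, Sdc1, syndecan 1, which keratinocytes also make, held most of the reads and was higher (1.02 ± 0.17, adjusted p = 0.00191), and Ighd was lower (−1.36).

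Markers of vessels and of Schwann cells were lower. Endothelial genes fell in 24 of 38 and rose in 1 (median −1.14), including Vwf, von Willebrand factor, at 63.6, 53.1 and 84.7 CPM in C57BL/6 and 18.5, 29.1 and 22.7 CPM in the KO-labelled libraries (−1.51 ± 0.25, adjusted p = 0.00198). Flt1 (−1.74), Robo4 (−1.63), Esam (−1.49) and Nr2f2 (−1.37) followed. The count was 14 lower without KO-labelled replicate 3 and 15 lower without C57BL/6 replicate 3 or KO-labelled replicate 1. Pericyte and smooth muscle genes were lower in 13 of 23 (median −1.33), for example Myh11, smooth muscle myosin (−2.43 ± 0.29, adjusted p = 5.74e-04), and Rgs5 (−1.65). Schwann cell and myelin genes were lower in 15 of 29 and higher in 0 (median −1.38), at 0.156, 0.141 and 0.127% of exon reads in C57BL/6 and 0.0595, 0.0806 and 0.0588% in the KO-labelled libraries. Cldn19, a claudin of myelin, was at 11.8, 11.5 and 11.5 CPM in C57BL/6 and 1.32, 2.24 and 1.70 CPM in the KO-labelled libraries (−2.69 ± 0.25, adjusted p = 4.29e-04), and Prx, periaxin, changed by −2.15 ± 0.21 (adjusted p = 4.29e-04). The Schwann cell count was 19 lower without KO-labelled replicate 2. Neuron and axon genes did not follow, with 1 of 11 higher, Tubb3 (5.26 ± 0.49, adjusted p = 4.29e-04), and 2 lower, Th (−3.25) and Tubb4a (−2.02). Their summed share was 0.0207, 0.0157 and 0.0200% of exon reads in C57BL/6 and 0.0222, 0.0303 and 0.0256% in the KO-labelled libraries. The skeletal muscle share fell beside these markers, as given above, and its part was not tested.

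Pigment cell genes were higher in 15 of 19 and lower in 1 (median 2.00), at 0.0370, 0.0374 and 0.0252% of exon reads in C57BL/6 and 0.200, 0.0696 and 0.221% in the KO-labelled libraries. Tyrp1, an enzyme of eumelanin synthesis, was at 4.00, 2.68 and 3.71 CPM in C57BL/6 and 184, 15.7 and 212 CPM in the KO-labelled libraries (5.30 ± 0.87, adjusted p = 0.00199), and Trpm1, a channel under control of the melanocyte factor Mitf, changed by 6.32 ± 1.02 (adjusted p = 0.00179). Replicate 2 was the lowest KO-labelled library for the list sum, as it was for hair shaft genes. Gpnmb (2.66) and Myo5a, the motor that carries melanosomes (1.48), rose too. Metal ion handling genes were higher in 13 of 25 and lower in 2 (median 0.76). Slc40a1, the iron exporter ferroportin, was at 32.3, 30.1 and 18.9 CPM in C57BL/6 and 407, 134 and 278 CPM in the KO-labelled libraries (3.32 ± 0.39, adjusted p = 5.31e-04), the zinc importer Slc39a8 changed by 3.16 ± 0.36 (adjusted p = 5.22e-04), and metallothionein Mt2 by 1.81 ± 0.21 (adjusted p = 5.68e-04). Leaving out KO-labelled replicate 2 gave 5 lower metal genes, and any other 1 of the 6 libraries 0 to 1.

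Vitamin and detoxification genes were called in both directions, against 19.2% higher and 16% lower over all genes. In retinoid, vitamin D and steroid metabolism 8 of 29 were higher and 6 lower. Stra6, the membrane receptor for retinol-binding protein, was at 1.08, 0.597 and 1.86 CPM in C57BL/6 and 104, 14.3 and 83.2 CPM in the KO-labelled libraries (5.85 ± 0.83, adjusted p = 0.00111), and Vdr, the vitamin D receptor, changed by 1.77 ± 0.23 (adjusted p = 7.79e-04). Aldh1a1, a retinoic acid-making enzyme, fell (−2.04 ± 0.29, adjusted p = 0.00103). The count was 3 lower without KO-labelled replicate 1 or 3 and with scaling by library size alone. Cytochrome P450 and related oxidase genes were lower in 11 of 27 and higher in 5 (median −0.93), such as Cyp2f2 (−2.51), Cyp4b1 (−1.80) and Fmo2 (−1.42). The count was 6 lower without KO-labelled replicate 1 or 3, 7 lower without C57BL/6 replicate 2 or 3 and 18 lower without KO-labelled replicate 2, and 3 higher without C57BL/6 replicate 3. Glucocorticoid-responsive genes were lower in 8 of 22 and higher in 4, with Klf15 (−1.67) and Zbtb16 (−2.23) down and Mt2 up.

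Intron reads come largely from RNA that is not yet spliced, and their share of gene reads was higher in each KO-labelled library than in each C57BL/6 library. In genes with more than 1 exon the intron column held 6.34, 7.28 and 6.00% of reads in C57BL/6 and 8.69, 8.18 and 9.38% in the KO-labelled libraries, a difference of 2.21 percentage points (exact two-sided permutation test, p = 0.1, the smallest that 3 against 3 allows). BALB/c lay at 9.42, 7.84 and 7.04%. The tables themselves differ in how intron reads were assigned. In genes annotated with a single exon, which have no intron, the intron column held 9975 to 11653 reads in C57BL/6 libraries and 1 to 2 in the KO-labelled libraries. The group difference in intron reads and this difference between tables cannot be told apart.

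**Figure D4:**
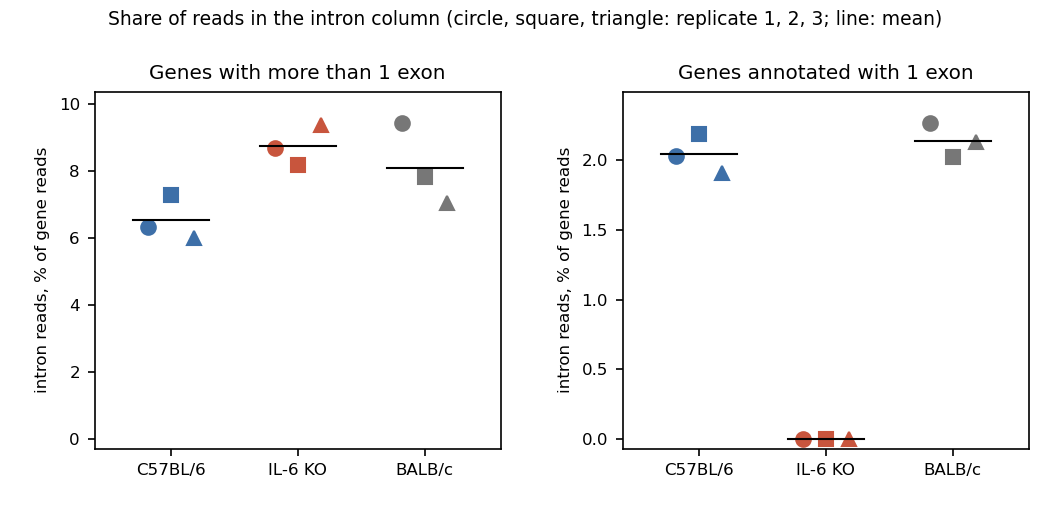
Share of gene reads in the intron column for each library (y axis, %; circle, square and triangle for replicates 1, 2 and 3; line, mean), for genes with more than 1 exon at left and genes annotated with 1 exon at right. The KO-labelled libraries lie at 8.18 to 9.38% at left, above the C57BL/6 libraries, and at nearly 0 at right, where C57BL/6 and BALB/c lie at 1.91 to 2.26%.

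Of 10226 genes tested on intron reads, 2389 were called (23.4%), 1268 higher (12.4%) and 1121 lower (11%). In 9748 genes tested on both, 3505 were called on exon reads and 2239 on intron reads. The 1526 called in the same direction on both made up 43.5% of the exon calls and 68.2% of the intron calls, and 22 were called in opposite directions. Reads of overlapping genes cannot be separated here, and in genes whose body overlaps no other, 1072 of 4633 were called on intron reads. Without KO-labelled replicate 3 the intron count over all genes was 1505, without replicate 1 it was 1568, and without replicate 2 it was 3151.

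Single genes with the highest intron changes were nearly unread in C57BL/6. Tgm6, a transglutaminase, had intron reads of 1, 2 and 0 in C57BL/6 and 178, 85 and 190 in the KO-labelled libraries (7.33 ± 0.55, adjusted p = 4.25e-06). Vsig8 (7.78), whose body overlaps another gene, Gprc5d (6.82) and Capn8 (6.10) were also among the 5 highest. Chac1, which degrades glutathione, had 3, 1 and 2 in C57BL/6 and 189, 93 and 155 in the KO-labelled libraries intron reads (6.37 ± 0.51, adjusted p = 3.47e-06), while its exon reads changed by 3.11. At the other end, Thrsp, a lipogenic gene of fat and liver, changed by −4.41 ± 0.77 (adjusted p = 7.98e-04) in intron reads and by −2.44 ± 0.92 (adjusted p = 0.0659) in exon reads, so that only the intron change passed the threshold. Without KO-labelled replicate 2 the exon change passed too (−3.32, adjusted p = 0.0341). Hrc (−4.17) and Ank1 (−3.79), both muscle genes, and Sec14l5 (−3.72) and Sult5a1 (−3.67) completed the 5 lowest. The bodies of Ank1 and Sult5a1 overlap another gene, and neither was tested with uniquely mapped intron reads.

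By gene list, the intron column followed the exon reads for some groups and not for others. Mitosis genes were higher in 12 of 19 tested on intron reads and lower in 0, against 12.4% of all genes. MHC genes were lower in 10 of 21, endothelial genes in 11 of 20, basement membrane genes in 13 of 33 and Schwann cell genes in 6 of 11, against 11% of all genes. Fibroblast markers were lower in 11 of 22 on intron reads and in 5 of 31 on exon reads, where 16% of all genes were lower. That exon count was 2 without C57BL/6 replicate 1 or KO-labelled replicate 3, 3 without KO-labelled replicate 1 and 11 without KO-labelled replicate 2. Respiratory chain subunits, 31 of 40 lower on exon reads, were lower in 3 of 36 on intron reads, and splicing factors, 33 of 50 higher on exon reads, were higher in 7 of 48. Whether exon and intron calls differ for a list was tested per gene only, as given next.

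The exon change minus the intron change of the same gene was tested in 1 model for 9744 genes, and 573 (5.88%) were called, with 215 (2.21%) above and 358 (3.67%) below 0. Higher calls were 37.5% of the total with each column scaled on its own and 82 of 819 with 1 common factor per library, which moved the median to −0.26, so the direction of such calls depends on the scaling. Without KO-labelled replicate 3 the count was 278, without replicate 1 it was 314 and without C57BL/6 replicate 3 it was 322. Of the calls, 59.2% lay in genes whose body overlaps another gene, against 53.7% of the genes tested, and among genes without overlap 224 of 4507 were called. Among respiratory chain subunits, 3 of 36 were called below 0 and 0 above (median −0.43). Assignment of intron reads differed between the KO-labelled tables and the others, and its part in these calls was not tested.

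Il31ra, the receptor for the itch cytokine IL-31 and a relative of gp130, showed the 2 columns moving apart in a gene that overlaps no other. Its exon reads were 110, 97 and 94 in C57BL/6 and 10, 23 and 16 in the KO-labelled libraries, and its intron reads 160, 123 and 98 in C57BL/6 and 356, 201 and 285 in the KO-labelled libraries (exon minus intron −3.49 ± 0.32, adjusted p = 1.01e-09). Gphn, gephyrin, behaved alike, with 215, 234 and 263 exon reads against 96, 97 and 102, and intron reads of 183, 148 and 107 in C57BL/6 and 919, 544 and 735 in the KO-labelled libraries (−3.34 ± 0.26, adjusted p = 1.16e-11). Neither gene's groups overlapped in either column. How much of these values goes with the different assignment of intron reads in the KO-labelled tables was not tested. Mapre2 (−4.05), Bcas3 (−3.33) and Loxl2 (−3.29) were the others of the 5 lowest. Their bodies overlap another gene, and Loxl2 was not tested with uniquely mapped reads. Above 0, the 5 highest were Ctse (2.37 ± 0.56, adjusted p = 0.00727), the zinc importer Slc39a10 (2.13 ± 0.25, adjusted p = 3e-07), Sorcs2 (2.01), Ppp2r1b (1.92) and Prss53 (1.90). Of these, all but Ctse have bodies that overlap another gene, and Prss53 was not tested with uniquely mapped reads. The Ctse call ended without C57BL/6 replicate 3 (1.70, adjusted p = 0.103) and the Prss53 call without C57BL/6 replicate 1 (1.77, 0.0503). Slc7a11, named here for its exon change and below the read minimum of that choice, had intron reads of 12, 58 and 15 in C57BL/6 and 15, 15 and 9 in the KO-labelled libraries (6.60 ± 0.54, adjusted p = 5.59e-11), and its body overlaps another gene.

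**Figure D5:**
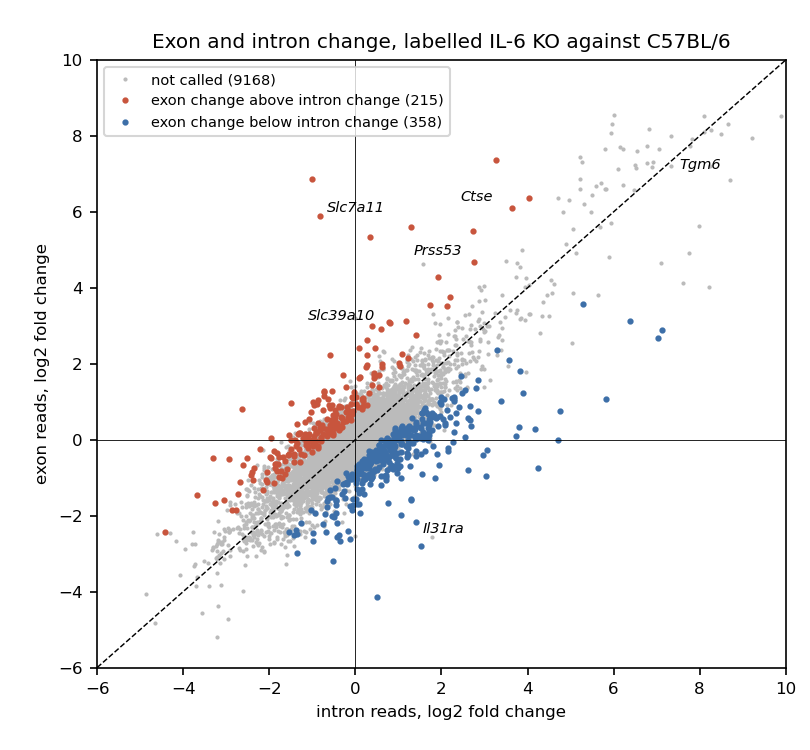
Log2 fold change of exon reads (y axis) against that of intron reads (x axis) for each gene tested, with the line of equality dashed. The 215 genes in red were called with an exon change above the intron change and the 358 in blue below, Il31ra among the latter and Slc7a11 at the upper left of the former.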

How the data were processed

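Skin RNA of 9 libraries was counted per gene by the authors, against GRCm38 per the submitters' processing notes. The deposited counts used here are Total exon reads and Total intron reads, raw counts per gene per the file headers; the aligner is not given in the sources used here. Of 3 stacked tables in the file of C57BL/6 replicate 1, only the top one entered. Expression values, a column defined differently in the KO tables, were left out. RNA was total RNA in TruSeq libraries, per the labels' protocols, and strand is not stated.

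Counts were tested with edgeR 4.0.16 (R 4.3.3), with all 9 libraries in 1 quasi-likelihood model, TMM scaling and filterByExpr (minimum count 10). P-values were adjusted by Benjamini-Hochberg over all genes tested, with a threshold of 0.05. SE is the log2 fold change divided by the square root of F. CPM scales counts to the exon reads of the tested genes in a library, adjusted by TMM. Introns were tested in genes with more than 1 exon, and exon minus intron change in 1 model with a term per library. Intervals cover counting error only, at 95%. On simulated data with 100 genes changed per fold size, the exon comparison recovered 31% of 2-fold and 95% of 4-fold changes. The simulation had far fewer changed genes than were called in the data and 1 dispersion for all genes. Its recovery rates therefore do not carry over to the data. Alternatives included DESeq2 1.42.0, RLE and library-size scaling, no filter, uniquely mapped reads and each library left out.

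Named genes are the 10 highest and 10 lowest fold changes with non-overlapping groups and at least 5 CPM, for each list with at least 3 called members the 4 of lowest p, Il6 and 6 genes of its pathway, and 5 genes per direction for introns and for exon minus intron with at least 20 reads. Further members named beside a list were picked after their values were seen. Some genes of these lists are not reported here. The comparison and all 85 gene lists, written from general knowledge, were chosen with earlier results of these data known.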

Additional observations from a re-analysis of the deposited data

Results flagged for a closer look

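The tables list 17474 genes with no annotated transcript. Such genes have no exon reads, and the comparisons above leave them out, but their reads stand in the intron column. In 11 of them each KO-labelled library had at least 20 reads and lay above each C57BL/6 library, with a mean at least 10-fold higher. A030005K14Rik (chromosome 1, 83058286 to 83059378) had 10, 5 and 0 reads in C57BL/6 and 1055, 352 and 1135 in the KO-labelled libraries, a KO-labelled mean of 203 CPM of exon reads. Krtap28-10, named as a hair keratin-associated protein gene and lying on the same chromosome at 83041524 to 83042480, had 12, 2 and 0 against 918, 304 and 979 reads. Its KO-labelled mean was 176 on the same scale. Both were lowest in KO-labelled replicate 2, as hair shaft genes were. On that scale the KO-labelled means were 33.5 for RP23-346N11.6, 21.8 for Gm10013, 19.5 for Gm15500, 12.7 for Tpt1-ps3, 8.61 for Gm14193, 8.41 for Rpsa-ps10, 7.86 for Gm13456, 7.67 for Gm5559 and 6.52 for Rpl3-ps1. Several of these carry names of pseudogenes, whose reads may be shared with the parent gene. Assignment of reads to the intron column differed between the KO-labelled tables and the others, and its part in these values was not tested. With 3 libraries per group, no check for single outlying libraries was applied to these genes. The fits with 1 library left out did not include them.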

How the results depend on the processing

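Over all genes tested, 5068 genes were called on exon reads, and the count was 4841 to 5419 with RLE or library-size scaling, scaling without hair and muscle genes, no filter, a robust fit, DESeq2 or uniquely mapped reads, and 4087 with only the 6 libraries compared. A minimum log2 change of 1 left 1121. Leaving out 1 library gave 3238 to 6806 exon calls, 1505 to 3151 intron calls and 278 to 526 calls of exon minus intron change. A minimum count of 30 left 1507 intron calls of 4800 genes tested. Genes whose body overlaps no other, an alternative chosen after seeing the data, gave 1072 intron calls and 224 of exon minus intron change. The log2 fold change of Il6 exon reads ranged from 2.26 to 4.43 with 1 library left out, a choice also made after seeing the data. Of 291 named genes called on exon reads, 137 lost the call under at least 1 alternative and 30 under one other than the minimum change, and 0 turned direction. Same-numbered libraries of the 2 groups did not deviate together (correlations of deviations −0.03, −0.13 and −0.07), so the numbers were not taken as pairs. With the replicate block the count was 4275 exon calls (2283 higher) and 2138 intron calls. In the simulation, whose setting differs from the data, 2-fold changes were often missed. A gene not called is not shown to be unchanged.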

Other observations

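Genes of axon guidance and ephrin signalling, which also steer epithelial cells, were higher in 17 of 45 tested members and lower in 4 (median 0.35). Epha2 (1.5 ± 0.18, adjusted p = 5.86e-04), Epha4 (1.66), Unc5b (2.49) and Plxna2 (1.40) rose, and Sema3b (−1.80) and Plxnd1 (−1.02), a semaphorin receptor of vessels, fell. The count was 11 higher without KO-labelled replicate 1 or 3, 8 lower without KO-labelled replicate 2 and 2 lower without C57BL/6 replicate 3 or KO-labelled replicate 1 or 3. Notch pathway genes were higher in 7 of 25 and lower in 4, with the ligand Jag1 (1.42 ± 0.29, adjusted p = 0.00523) higher and the endothelial ligand Dll4 (−1.62 ± 0.32, adjusted p = 0.00444) lower. Of the Notch genes tested 44% were called, against 35.2% of all genes. For Notch the count was 1 lower without KO-labelled replicate 3 and 2 lower without C57BL/6 replicate 1 or 3 or KO-labelled replicate 1 and with the replicate block. Immediate early genes were higher in 12 of 27 and lower in 1 (median 0.51). Junb was at 49.8, 73.2 and 50.7 CPM in C57BL/6 and 209, 161 and 146 CPM in the KO-labelled libraries (1.57 ± 0.19, adjusted p = 6.33e-04) and Egr1 at 30.4, 54.6 and 23.2 CPM in C57BL/6 and 177, 124 and 118 CPM in the KO-labelled libraries (1.95 ± 0.29, adjusted p = 0.00136), without overlap in either, while Nr4a1 fell (−0.98). Of these genes 4 were lower without KO-labelled replicate 2. The labels used here give no time from dissection to RNA.

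Antioxidant genes were higher in 11 of 39 and lower in 11. The glutathione synthesis gene Gclc (1.79 ± 0.24, adjusted p = 9.02e-04) rose and the transferase Gstm1 (−1.27 ± 0.15, adjusted p = 5.22e-04) fell. Chromatin modifier genes were higher in 15 of 34 and lower in 3, with the genome organiser Satb1 at 50.4, 55.3 and 48.3 CPM in C57BL/6 and 6.08, 20.2 and 5.73 CPM in the KO-labelled libraries (−2.24 ± 0.41, adjusted p = 0.00335) and the DNA methyltransferase Dnmt3a changing by −1.25. The count was 7 higher without KO-labelled replicate 3, 8 higher without C57BL/6 replicate 3 or KO-labelled replicate 1 and 9 higher without C57BL/6 replicate 1. Among collagens 3 of 23 were higher and 4 lower, with 30.4% called against 35.2% of all genes. Col12a1 (1.42 ± 0.21, adjusted p = 0.00122) and Col11a1 (1.73 ± 0.34, adjusted p = 0.00468) rose, and Col8a2 (−1.72 ± 0.19, adjusted p = 4.99e-04) fell. The count was 1 lower without KO-labelled replicate 1 or 3 and 2 lower without C57BL/6 replicate 3 and with scaling by library size alone. Basement membrane and integrin genes were lower in 13 of 44 and higher in 2, including the laminin gene Lamb2 (−1.23 ± 0.23, adjusted p = 0.00376) and the integrin gene Itgb4 (−1.11). The count was 7 lower without C57BL/6 replicate 3 or KO-labelled replicate 1 or 3 and 24 lower without KO-labelled replicate 2. Of Hox genes, 2 of 26 were higher and 5 lower, with 26.9% called against 35.2% of all genes. Hoxc13, a regulator of hair and nail keratins, was at 5.53, 8.35 and 4.27 CPM in C57BL/6 and 157, 43.6 and 140.1 CPM in the KO-labelled libraries (4.21 ± 0.49, adjusted p = 5.33e-04), and the call for Hoxd9 was in the other direction (−1.57). The count was 7 higher without KO-labelled replicate 2, 1 higher without C57BL/6 replicate 2 or 3 or KO-labelled replicate 1 or 3, 4 higher with scaling by library size alone, and 3 lower without C57BL/6 replicate 3 or KO-labelled replicate 1.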
